A study of Homo sapiens with 10 samples.

Results

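Cadherins and protocadherins are the calcium-dependent adhesion proteins of the cell surface, and 50 of them were followed here across 2 human neuroblastoma lines and a treatment. The genes were every one whose platform symbol is CDH followed by digits or begins with PCDH, with the brightest probe set kept for each symbol. Each of the 50 symbols had 1 probe set, out of 21448 probe sets tested, and all 50 matched a RefSeq gene record by gene identifier. By textbook class they held 4 type I classical cadherins, 13 type II classical cadherins, 4 other genes with a CDH symbol, 13 non-clustered protocadherins and 16 genes of the protocadherin beta (PCDHB) cluster. The PCDHA and PCDHG clusters, CDH4 and CDH13 were not analysed here.

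RNA was measured on 10 whole-transcript expression arrays. SK-N-FI and SK-N-AS are established neuroblastoma cell lines, and both were grown in the same serum-containing medium. Control cells received phosphate-buffered saline (PBS), and treated cells received BG-P1600-TAT at 30 µM, both for 48 h; the SK-N-AS titles write the compound as BG-P-TAT, taken here as the same agent. The series title describes it as a conjugate directed at the norepinephrine transporter and at thyrointegrin αvβ3. For SK-N-FI there were 2 arrays of each condition, numbered 1 and 2, and for SK-N-AS 3 control arrays (25, 26 and 27) and 3 treated arrays (28, 29 and 30). The design text speaks of 3 biological replicates for SK-N-FI, where 2 arrays per condition were analysed here, and does not say which replicate an array holds. The labels are silent on whether each SK-N-AS array stands for its own culture, and p-values then cover only array-to-array spread, part of which may be technical. The lines carry different array numbering and different overall signal, so line and array run cannot be told apart.

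Classical cadherins bind the same or a related cadherin on the neighbouring cell and are tied to actin through beta- and alpha-catenin. Type I members such as E- and N-cadherin give strong adhesion, and type II members are widely used by neurons and mesenchymal cells to sort from one another. Protocadherins have a similar outer region but different cytoplasmic tails and do not bind beta-catenin; the clustered ones are switched on in combinations that give single neurons an identity on their surface. Neuroblastoma arises from the sympathetic branch of the neural crest, whose cells change their cadherins as they migrate and settle.

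Values are log2 signals as deposited. A gene was called above background on an array when its value passed the value that 95% of that array's 612 negative-control probe sets fell under, a limit of 7.44 to 8.26 in SK-N-FI against 6.75 to 7.23 in SK-N-AS. The first treated SK-N-FI array set the highest limit, and 21 rather than 19 members passed on every SK-N-FI array without it. The median gene signal was 6.61 to 6.62 in SK-N-FI against 5.75 to 5.81 in SK-N-AS, so many line differences are also given after quantile normalization of the 10 arrays together. Under that scaling the median difference over all probe sets moved from -0.61 to 0.03. A line difference given alone with no scaling named is as deposited and still holds that offset. Marker genes of the adrenergic state of neuroblastoma were uneven between the lines: DBH and PHOX2A were above background on every SK-N-FI array and on no SK-N-AS array, HAND2, GATA3 and ISL1 were above it on all 10 arrays, and TH on none. By limma at an adjusted p under 0.05, DBH, PHOX2A and ISL1 were higher in SK-N-FI in control and treated arrays under both scalings. The ISL1 control means were 13.73 in SK-N-FI against 7.76 in SK-N-AS. HAND2, GATA3 and TH did not pass after quantile normalization. Of the mesenchymal-type markers, FN1 and FOSL1 passed on every SK-N-AS array and no SK-N-FI array, VIM and CD44 on all 10, and YAP1 and PRRX1 on only some SK-N-AS arrays. In control and treated arrays under both scalings, FN1, FOSL1, YAP1 and PRRX1 were higher in SK-N-AS by the same test. CD44 went the other way, with control means of 11.28 in SK-N-FI against 8.58 in SK-N-AS, and VIM passed only after quantile normalization. Endothelial CDH5, KDR and PECAM1 passed nowhere. The leukocyte gene PTPRC passed on 5 of 6 SK-N-AS arrays, with CD14 and CD3E on none.

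On every SK-N-FI array 19 of the 50 members were above background, close to the 38.1% of all probe sets, and on every SK-N-AS array 8 were, against 30.9%. There were 10 members above background on every SK-N-FI array and on no SK-N-AS array (4.1% of all probe sets), namely PCDH19, PCDH7, PCDH9, PCDH17, PCDH1, CDH10, PCDHB2, PCDHB5, PCDHB7 and PCDHB8. The reverse held for 1 member, CDH11 (2.02% of all probe sets). Both lines passed on every array for 6 members, CDH2, PCDH18, PCDHB6, PCDHB11, PCDHB12 and PCDHB16, and 26 members passed on no array (50.2% of all probe sets).

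Between the control arrays, 25 of 50 members were higher in SK-N-FI (47.8% of all probe sets) and 7 were higher in SK-N-AS (11.5%), by limma with a Benjamini-Hochberg adjusted p under 0.05 over all probe sets. After quantile normalization the counts were 19 (22.8%) and 10 (23.9%). The treated arrays gave 26 (47.8%) and 9 (11.2%) as deposited, and 18 (22.2%) and 12 (23.4%) after quantile normalization. Calls that held in control and treated arrays under both scalings numbered 17 higher in SK-N-FI (18.9% of all probe sets) and 6 higher in SK-N-AS (9.09%). The median difference over the members, SK-N-AS minus SK-N-FI, was -0.68 as deposited, beside -0.61 over all probe sets, and -0.36 after quantile normalization, beside 0.03.

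Among the classical cadherins, CDH2 was well above background in both lines and higher in SK-N-AS. CDH2 encodes N-cadherin, the main type I cadherin of neural and mesenchymal cells. Its log2 signal was 11.37 and 11.85 in control SK-N-FI and 11.66 and 11.58 in treated SK-N-FI. In SK-N-AS it was 13.63, 13.97 and 13.80 in control and 13.48, 13.76 and 13.96 in treated arrays, so every SK-N-AS array lay above every SK-N-FI array. The control difference was 2.19 (SE 0.24, limma adjusted p = 6.15e-06), and 3.43 after quantile normalization. CDH1, which encodes E-cadherin of epithelia, was below background on all 10 arrays, between 3.32 and 3.68 in SK-N-FI against between 2.79 and 3.34 in SK-N-AS. The epithelial markers EPCAM, KRT18, KRT19 and KRT5 were also below background everywhere, and KRT8 passed on 4 of 4 SK-N-FI and 5 of 6 SK-N-AS arrays. CDH3 (P-cadherin) and CDH15 (M-cadherin of muscle), the other type I members measured, passed on no array.

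CDH11, a type II cadherin of mesenchyme and bone-forming cells also called OB-cadherin, showed the opposite detection in the lines. Control SK-N-FI arrays read 4.15 and 4.55 and treated ones 4.83 and 3.79, all below background. SK-N-AS read 8.29, 9.06 and 8.99 in control and 8.43, 8.91 and 8.95 in treated arrays, all above background, with no overlap between the lines. Because the SK-N-FI side was below background, the difference is a bound. CDH11 was at least 2.39-fold higher in SK-N-AS control arrays as deposited (limma adjusted p = 3.33e-07), and at least 6.3-fold after quantile normalization. Here and below such a bound sets the bright line's mean against the dim line's mean background limit. The p beside a bound tests the fitted difference, which for CDH11 was 4.43 (SE 0.34) on the log2 scale as deposited. CDH7, a type II cadherin of neural crest and brain, was at the edge of detection, with 2 of 6 SK-N-AS arrays and no SK-N-FI array above background. Its control difference of 1.15 passed the test (limma adjusted p = 0.0126) but fell to 0.57 (adjusted p = 0.226) without the first SK-N-FI control array. The treated difference of 0.97 (limma adjusted p = 0.0304) lost its call without the first SK-N-FI treated array (0.54), array 28 (0.91) or array 30 (0.89).

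The other type II cadherins detected were brighter in SK-N-FI. CDH10, expressed by brain neurons, read 9.05 and 9.23 in control and 9.18 and 9.45 in treated SK-N-FI arrays. In SK-N-AS it read 4.53, 5.85 and 5.19 in control and 5.51, 5.85 and 5.57 in treated arrays, all below background. It was at least 4.4-fold higher in control SK-N-FI as deposited (limma adjusted p = 5.74e-07), and at least 1.49-fold after quantile normalization. CDH24, a type II cadherin that binds alpha- and beta-catenin, read between 10.65 and 11.36 in SK-N-FI against between 7.16 and 7.59 in SK-N-AS, where 5 of 6 arrays were above background. Its control difference was -3.78 (limma adjusted p = 5.86e-08), and -2.15 after quantile normalization. CDH18, another neural type II cadherin, read 8.73 to 9.25 in SK-N-FI against 6.58 to 7.56 in SK-N-AS, where 3 of 6 arrays passed background. Its difference of -1.84 (limma adjusted p = 0.000275) became -0.34 (adjusted p = 0.425) after quantile normalization, so its call depends on the scaling. The remaining type II genes, CDH5, CDH6, CDH8, CDH9, CDH12, CDH19, CDH20 and CDH22, passed background on no array, and so did CDH16, CDH17, CDH23 and CDH26.

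**Figure D1:**
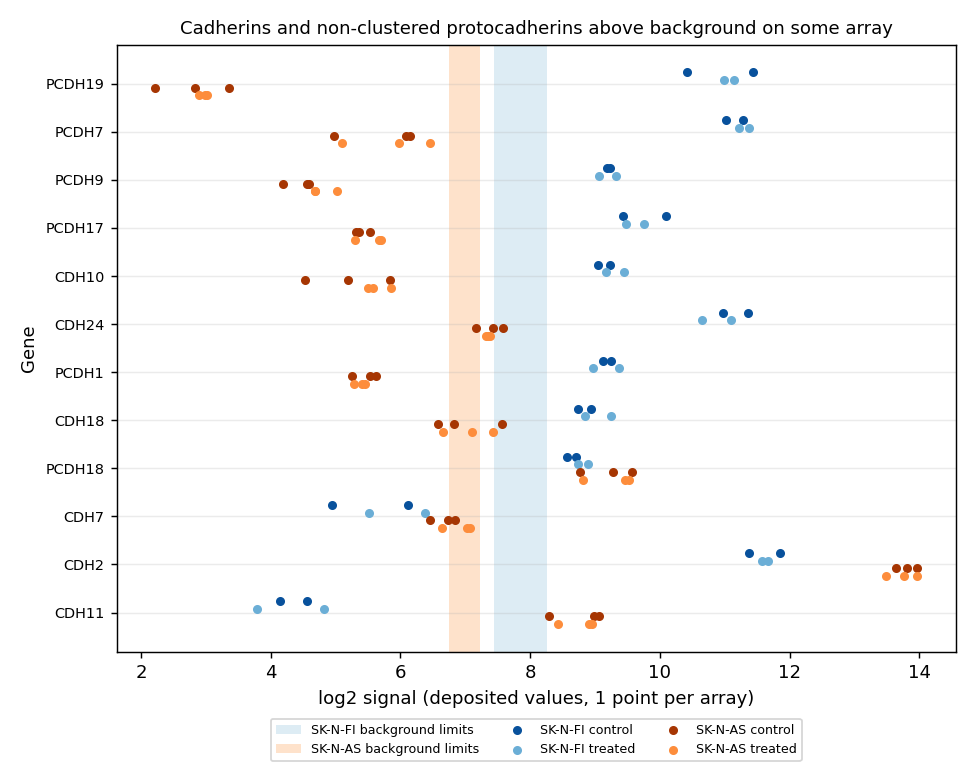
Deposited log2 signal (horizontal axis) of the 12 cadherin and non-clustered protocadherin genes above background on some array, 1 point per array, coloured by line and treatment; the shaded bands span the arrays' background limits in each line. PCDH19 to PCDH1 sit high in SK-N-FI and, apart from CDH24, below background in SK-N-AS, and CDH2 and CDH11 sit higher in SK-N-AS; control and treated points of a line lie together.

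Of the 13 non-clustered protocadherins, 6 were above background on every SK-N-FI array and 1 on every SK-N-AS array. PCDH19, a protocadherin of the delta class whose loss causes an epilepsy mainly of girls, read 10.42 and 11.43 in control and 10.99 and 11.14 in treated SK-N-FI arrays. In SK-N-AS it read 2.22, 2.84 and 3.35 in control and 3.02, 2.89 and 2.98 in treated arrays, far under background. PCDH19 was at least 15.1-fold higher in control SK-N-FI as deposited (limma adjusted p = 2.38e-09), and at least 4.97-fold after quantile normalization. In the treated arrays the bounds were at least 18-fold and at least 6.11-fold.

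PCDH7, also of the delta class and first described in brain and heart, read 11.02 and 11.29 in control and 11.23 and 11.38 in treated SK-N-FI arrays. SK-N-AS read 4.98, 6.15 and 6.09 in control and 5.11, 6.45 and 5.97 in treated arrays, with no array above background. The bound was at least 17.8-fold higher in control SK-N-FI as deposited (limma adjusted p = 2.57e-07), and at least 5.88-fold after quantile normalization. PCDH9, a delta protocadherin of the developing nervous system, read 9.05 to 9.32 in SK-N-FI against 4.19 to 5.03 in SK-N-AS. Its control bound was at least 4.6-fold as deposited (limma adjusted p = 6.25e-09) and at least 1.55-fold after quantile normalization. PCDH17, which acts at synapses and on growing axons, read 9.42 to 10.09 in SK-N-FI against 5.29 to 5.71 in SK-N-AS. Its control bound was at least 6.73-fold as deposited (limma adjusted p = 3.24e-08) and at least 2.2-fold after quantile normalization. PCDH1, a protocadherin also found in airway epithelium, read 8.97 to 9.37 in SK-N-FI against 5.25 to 5.62 in SK-N-AS. The PCDH1 control bound was at least 4.54-fold as deposited (limma adjusted p = 4.12e-08) and at least 1.53-fold after quantile normalization. For these 5 genes every SK-N-FI array was above background, no SK-N-AS array was, and the call in the same direction held in control and treated arrays under both scalings.

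PCDH18, the other non-clustered protocadherin detected, did not share that direction. It read 8.57 and 8.70 in control and 8.90 and 8.73 in treated SK-N-FI arrays, and 8.76, 9.58 and 9.27 in control and 8.82, 9.52 and 9.46 in treated SK-N-AS arrays. The lines overlapped, with SK-N-AS arrays 25 and 28 among the SK-N-FI values. The control difference of 0.57 did not pass the test (limma adjusted p = 0.11), but passed without array 25 (0.79, adjusted p = 0.0303) and after quantile normalization (2.15, adjusted p = 5.17e-05). The other 7 non-clustered protocadherins, PCDH8, PCDH10, PCDH11X, PCDH11Y, PCDH12, PCDH15 and PCDH20, passed background on no array. PCDH11X and PCDH11Y are a near-identical pair whose signals the probes may share, and the second is counted here without its levels.

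The PCDHB genes lie in 1 row on chromosome 5, each a single-exon gene with its own promoter, and clustered protocadherin promoters are known to share a conserved element bound by the architectural protein CTCF. RefSeq promoters (GRCh38.p14, 250 bases before to 50 after each gene start) were at hand for 14 of the 16 PCDHB members. Among words of 8 bases or more, GGTGGCGCT was the longest of those shared by the largest number of these promoters. It stood once on the gene strand in 13 of the 14 and never on the other strand, beginning 2 to 84 bases before the gene start. Longer words that contain it were shared by fewer of them. A search of both strands found the word in 0.501% of the 35116 promoters of the table, and in 0 of 13 PCDHA genes, 0 of 20 PCDHG genes, 0 of 11 non-clustered protocadherin genes and 0 of 12 CDH genes. The word was picked from the PCDHB promoters themselves, so its count in them is a description, not a test. The stretches below, all on the plus strand with the word in capitals, were chosen to show it in genes of differing signal. PCDHB2, PCDHB5, PCDHB7 and PCDHB8 were above background in SK-N-FI alone, PCDHB16 in both lines, PCDHB10 read alike in the lines as deposited, and PCDHB3 and PCDHB15 were below background throughout. PCDHB13 is shown for its likeness to PCDHB8, and PCDHB1, which lacks the word, is shown with its nearest match in capitals.
PCDHB2, chr5:141094535-141094574: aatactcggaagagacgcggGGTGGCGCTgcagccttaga
PCDHB5, chr5:141135170-141135209: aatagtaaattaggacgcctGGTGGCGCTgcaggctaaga
PCDHB7, chr5:141172557-141172596: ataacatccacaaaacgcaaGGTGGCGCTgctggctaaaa
PCDHB8, chr5:141177768-141177807: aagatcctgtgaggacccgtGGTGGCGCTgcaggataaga
PCDHB13, chr5:141213856-141213895: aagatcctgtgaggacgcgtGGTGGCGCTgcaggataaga
PCDHB16, chr5:141182301-141182340: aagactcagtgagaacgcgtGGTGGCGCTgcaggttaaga
PCDHB10, chr5:141192290-141192329: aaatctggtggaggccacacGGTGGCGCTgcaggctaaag
PCDHB3, chr5:141100384-141100423: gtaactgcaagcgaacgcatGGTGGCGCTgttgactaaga
PCDHB15, chr5:141245305-141245344: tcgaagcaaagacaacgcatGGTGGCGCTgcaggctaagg
PCDHB1, chr5:141051328-141051367: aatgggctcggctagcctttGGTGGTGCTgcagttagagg
The PCDHB1 stretch differs from the word at 1 base, C6T, with positions counted from the 5′ end of the word, and GGTGGTGCT was found in 0.396% of all promoters. The stretches of PCDHB8 and PCDHB13 had 39 of 40 bases in common. PCDHB genes also resemble each other in their coding sequence, and whether probes of 1 gene pick up another was not tested.

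Of the 16 PCDHB genes, 9 were above background on every SK-N-FI array (38.1% of all probe sets) and 5 on every SK-N-AS array (30.9%), with 4 on all 10 arrays. Between control arrays 14 of 16 were higher in SK-N-FI and none in SK-N-AS by limma, where 47.8% and 11.5% of all probe sets were called; at an unadjusted p under 0.05 none was higher in SK-N-AS either. After quantile normalization the counts were 10 (22.8% of all probe sets) and 1 (23.9%). The median PCDHB difference in control arrays was -2.06 as deposited, beside -0.61 over all probe sets, and -0.81 after quantile normalization, beside 0.03. The 8 genes called higher in SK-N-FI in control and treated arrays under both scalings (18.9% of all probe sets) were PCDHB1, PCDHB2, PCDHB3, PCDHB5, PCDHB7, PCDHB8, PCDHB13 and PCDHB16, where PCDHB1 and PCDHB3 stood below background on all arrays.

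PCDHB8 had the widest difference of the cluster. Its SK-N-FI arrays read 10.02 and 10.05 in control and 10.07 and 9.91 in treated cells, and its SK-N-AS arrays 4.77, 5.65 and 5.32 in control and 5.14, 5.09 and 5.31 in treated cells. It was at least 8.19-fold higher in control SK-N-FI as deposited (limma adjusted p = 1.75e-08), and at least 2.66-fold after quantile normalization. PCDHB13, whose stretch around the word is nearly the same, read 6.82 to 7.66 in SK-N-FI, where 1 of 4 arrays passed background, and 4.46 to 5.19 in SK-N-AS. Both genes were higher in control SK-N-FI as deposited, as were 14 of the 16 PCDHB genes, so the shared direction is not particular to this pair. The PCDHB13 difference was -2.12 (limma adjusted p = 4.35e-05).

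PCDHB2, PCDHB5 and PCDHB7 formed the rest of the set detected in SK-N-FI alone. PCDHB2 read 9.06 and 9.05 in control and 8.82 and 8.39 in treated SK-N-FI arrays and 4.09 to 5.17 in SK-N-AS, a control bound of at least 4.15-fold (limma adjusted p = 1.62e-07) and of at least 1.41-fold after quantile normalization. PCDHB5 read 8.91 to 9.79 and 5.57 to 6.48 in the same order, at least 5.8-fold (limma adjusted p = 3.12e-06) and at least 1.92-fold. PCDHB7 read 9.33 to 9.54 and 5.63 to 6.35, at least 5.28-fold (limma adjusted p = 1.7e-07) and at least 1.77-fold. For all 3 every SK-N-FI array lay above every SK-N-AS array.

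A second set of PCDHB genes was above background in both lines, and their line difference was smaller and depended on scaling in all but PCDHB16. PCDHB16 read 9.92 to 10.33 in SK-N-FI against 7.08 to 7.56 in SK-N-AS, with a difference of -2.73 (limma adjusted p = 6.01e-07) and of -1.07 (adjusted p = 0.0018) after quantile normalization. PCDHB12 read 10.54 to 10.78 and 8.06 to 8.97, and its difference went from -2.34 to -0.63 (limma adjusted p = 0.0856) with quantile normalization. PCDHB11 read 9.99 to 10.47 and 7.81 to 8.37, and its difference went from -2.11 to -0.42 (limma adjusted p = 0.183).

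PCDHB6 and PCDHB9 showed a line difference that went away with quantile normalization. PCDHB6 read 10.08 to 10.44 in SK-N-FI against 8.22 to 8.96 in SK-N-AS, with a control difference of -1.68 as deposited (limma adjusted p = 0.000161) and of 0.02 (adjusted p = 0.97) after quantile normalization. PCDHB9 read 8.35 to 8.61 in SK-N-FI against 6.68 to 7.60 in SK-N-AS, where 2 of 6 arrays passed background, with differences of -1.41 and 0.09. The deposited values of both genes did not overlap between the lines. PCDHB10 stood apart from its neighbours: it read 7.91 to 8.13 in SK-N-FI, with 3 of 4 arrays above background, and 7.48 to 8.01 in SK-N-AS, with 6 of 6 above. Its control difference was -0.09 (limma adjusted p = 0.751) as deposited and 1.36 (adjusted p = 0.000537) after quantile normalization. PCDHB14 read 7.70 to 8.21 in SK-N-FI against 5.69 to 6.42 in SK-N-AS, with 3 of 4 and 0 of 6 arrays above background, and its control difference was -2.01 (limma adjusted p = 2.74e-05). After quantile normalization it was -0.82 (limma adjusted p = 0.0242) in control arrays, and in treated arrays -0.45, which did not pass (adjusted p = 0.191). The remaining PCDHB1, PCDHB3, PCDHB4 and PCDHB15 passed background on no array. PCDHB1 lacks the word of the promoters, while PCDHB3, PCDHB4 and PCDHB15 have it, so the word occurred in genes with and without detected signal.

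**Figure D2:**
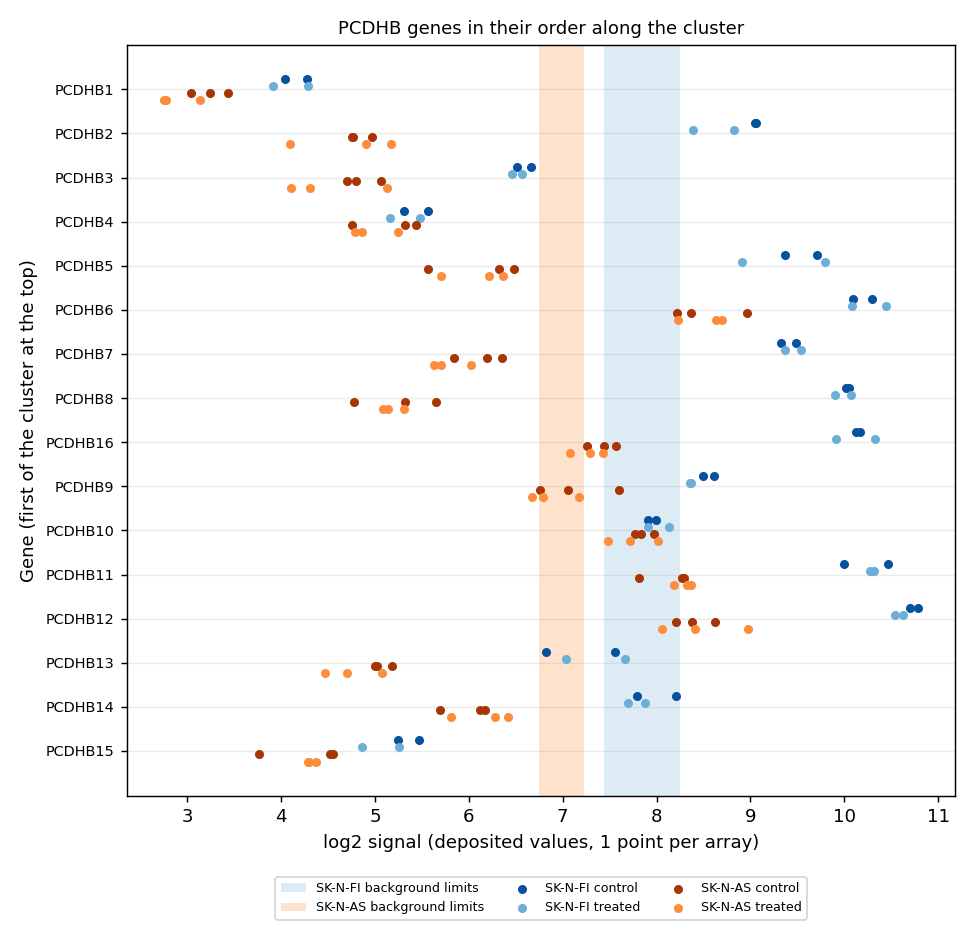
Deposited log2 signal (horizontal axis) of the 16 PCDHB genes in their order along chromosome 5, 1 point per array, coloured by line and treatment; the shaded bands span the arrays' background limits in each line. PCDHB2, PCDHB5, PCDHB7 and PCDHB8 are above background in SK-N-FI and below it in SK-N-AS, PCDHB6, PCDHB11, PCDHB12 and PCDHB16 are above it in both, and the PCDHB10 points of the lines overlap.

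Several calls concerned genes below background on every array, whose differences cannot be read as levels. CDH16, the cadherin of kidney tubules, CDH23, a cadherin of the tip links of inner-ear hair cells, and PCDH10, a protocadherin of brain, were called higher in SK-N-AS by 1.34, 2.05 and 1.46 on the log2 scale. CDH3, CDH5 (VE-cadherin of endothelium), PCDHB1 and PCDHB3 were called higher in SK-N-FI, with differences of -1.16, -1.50, -0.92 and -1.73. All 7 calls held in control and treated arrays under both scalings. With each array centred on its own median, CDH3 lost its call in control (-0.32) and treated arrays (-0.36) and CDH5 in control arrays (-0.66). PCDHB1 then moved to -0.07 in control and -0.38 in treated arrays, and PCDHB3 to -0.88 and -1.16.

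**Figure D3:**
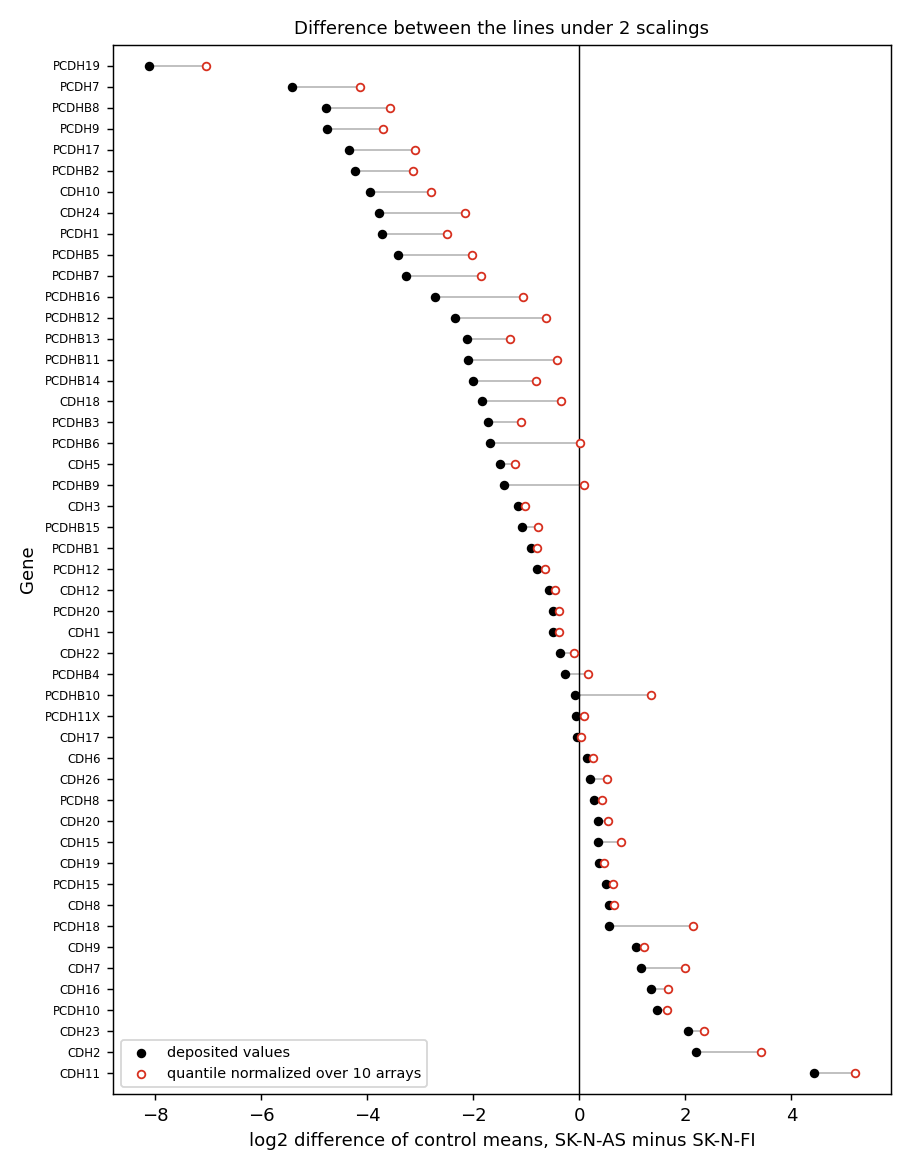
Difference of control means, SK-N-AS minus SK-N-FI, on the log2 scale (horizontal axis) for 49 members ordered by the deposited difference; filled points are deposited values and open points are values quantile normalized over 10 arrays. PCDH19 is at -8.12 and -7.05 and CDH11 at 4.43 and 5.20, and among the genes above background on some array PCDHB6, PCDHB9 and PCDHB10 cross 0 between the scalings.

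The series asked what the conjugate does to gene expression in each line. No member was called after treatment in either line, by limma at an adjusted p under 0.05, where 0% of all probe sets were called in each line. At an unadjusted p under 0.05 there was 1 member in SK-N-FI (2.85% of all probe sets) and 2 in SK-N-AS (2.6%). The mean was higher in treated SK-N-FI arrays for 25 members and lower for 25, and in SK-N-AS for 28 and 22. The median change was -0.004 in SK-N-FI against 0.01 in SK-N-AS, each beside -0.005 over all probe sets. The 95% interval of the change lay within 2-fold in either direction for 42 of 50 members in SK-N-FI (84.9% of all probe sets) and for 42 in SK-N-AS (82.1%). Of the 24 members above background on some array it did so for 22 in each line.

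The bright members with a line difference stayed near their control level. CDH2 changed by 0.01 on the log2 scale in SK-N-FI (95% interval -0.56 to 0.58) and by -0.07 in SK-N-AS (-0.55 to 0.42), neither passing the test. CDH11 in SK-N-AS differed by -0.02 (-0.63 to 0.59). In SK-N-FI, PCDH19 differed by 0.14 (-0.65 to 0.93), PCDH7 by 0.15 (-0.37 to 0.66) and PCDHB8 by -0.05 (-0.54 to 0.44). These intervals leave room for changes under 2-fold, and do not show that the conjugate had no effect.

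The members with the smallest treatment p were, with 1 exception, below background. In SK-N-FI they were CDH15, CDH19 (a cadherin of Schwann cell precursors), PCDHB2, PCDH20 and CDH1. CDH15 read 4.90 and 5.26 in control and 5.99 and 5.55 in treated arrays, a difference of 0.69 (95% interval 0.10 to 1.28, limma adjusted p = 1). PCDHB2, the exception, differed by -0.45, with an interval that reached up to 0.10 and with both treated arrays under both controls. CDH19 differed by 0.51, PCDH20 by -0.36 and CDH1 by 0.31. In SK-N-AS the 5 were PCDH11X, CDH22, PCDH12, CDH8 and CDH5. PCDH11X read 2.62, 3.10 and 3.22 in control and 4.29, 3.63 and 3.32 in treated arrays, a difference of 0.77 (0.11 to 1.43, limma adjusted p = 1.00). CDH22, a cadherin of pituitary and brain, differed by 0.71 (0.03 to 1.39), PCDH12 by -0.50, CDH8 by 0.47 and CDH5 by -0.51. In SK-N-FI 11 members had no overlap between conditions, both treated arrays being higher for 7 and lower for 4, beside 13.8% and 14% of all probe sets. In SK-N-AS treated arrays were all higher for CDH3, PCDH11X and PCDH9 and all lower for PCDH12, beside 3.29% and 4.02%. Of these 3 that were higher, PCDH9 stood above background in SK-N-FI alone, and in SK-N-AS it differed by 0.35 (-0.14 to 0.84).

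**Figure D4:**
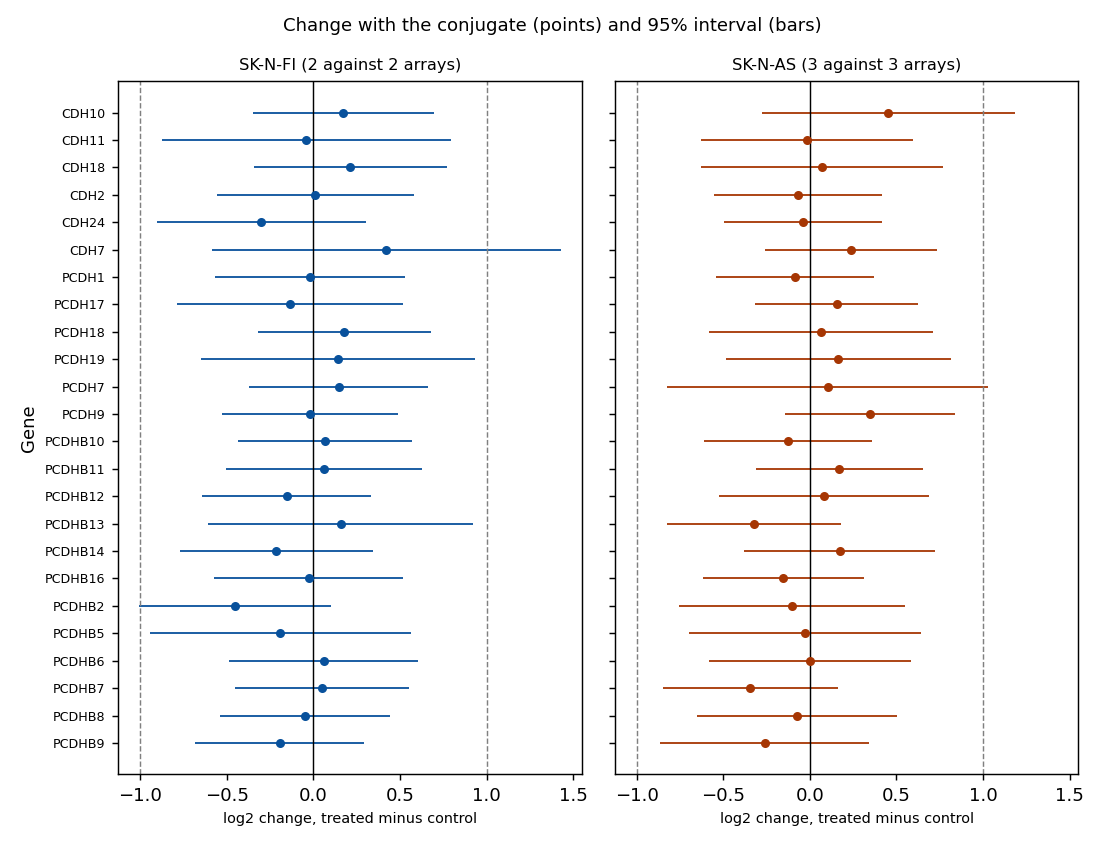
Change with the conjugate, treated minus control on the log2 scale (horizontal axes), for the 24 members above background on some array, in SK-N-FI (left) and SK-N-AS (right); points are limma estimates, bars 95% intervals, and dashed lines mark a 2-fold change. Every interval spans 0, and 22 of 24 lie between the dashed lines in each line.

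The difference of the treatment effect between the lines was tested as an interaction, and no member passed (limma, 0% of all probe sets called). At an unadjusted p under 0.05 there was 1 member, CDH15 (2.13% of all probe sets).

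Within SK-N-AS, arrays 25 and 28 read lowest of their own arm together for 11 members (17.9% of all probe sets), CDH2, CDH11, CDH10, CDH20, PCDH7, PCDH18, PCDH20, PCDHB2, PCDHB5, PCDHB14 and PCDHB16. They read highest together for 2, PCDHB6 and PCDHB7 (20.1% of all probe sets). Array 25 is a control and array 28 a treated array, so this spread lies across the treatment. Without both arrays, no member was called in the treatment comparison; this setting was added after the pattern was seen.

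Genes that work with cadherins, and other cadherin superfamily genes, were read from a list of 44, of which 40 were measured. These partner genes were 11 catenins and cytoplasmic partners, 5 processing and locus regulators, and 24 other superfamily genes. Above background on every SK-N-FI array were 15, beside 38.1% of all probe sets, and on every SK-N-AS array 9, beside 30.9%. The parts were unlike: in SK-N-FI 7 of 11 catenins and cytoplasmic partners, 4 of 5 regulators and 4 of 24 other superfamily genes passed. In SK-N-AS the numbers were 5, 2 and 2 in the same order. Between control arrays 18 were called higher in SK-N-FI (47.8% of all probe sets) and 2 in SK-N-AS (11.5%), and 11 and 2 held in control and treated arrays under both scalings (18.9% and 9.09%). CTNNB1 encodes beta-catenin, which binds classical cadherin tails. It read 13.60, 13.76, 14.01 and 13.84 in SK-N-FI against 10.69 to 11.53 in SK-N-AS, with a control difference of -2.49 (limma adjusted p = 6.92e-06) and of -1.32 (adjusted p = 0.00148) after quantile normalization. CTNNA2, the neural alpha-catenin, was at least 2.75-fold higher in control SK-N-FI (limma adjusted p = 6.18e-07), and CTNNAL1, a relative of alpha-catenin, at least 3.78-fold (limma adjusted p = 1.36e-07). CTNNA2 passed background on 3 of 4 SK-N-FI arrays, with 1 of 2 treated arrays among them, so it had no bound in treated arrays. After quantile normalization the CTNNAL1 bound was at least 1.3-fold, and CTNNA2 had no bound, though its fitted difference of -2.22 passed the test (limma adjusted p = 4.55e-05). CTNND1 was not analysed here.

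CLSTN2, a calsyntenin of synapses with cadherin repeats, read 8.95 to 9.33 in SK-N-FI against 2.74 to 3.66 in SK-N-AS. It was at least 4.2-fold higher in control SK-N-FI as deposited (limma adjusted p = 9.37e-09), and at least 1.43-fold after quantile normalization. SMC3, a cohesin subunit that acts with CTCF at the clustered protocadherin locus, read 13.20 to 13.77 in SK-N-FI. In SK-N-AS it read 6.74, 9.58 and 8.62 in control and 7.39, 8.23 and 10.62 in treated arrays, a wide spread within each arm. Arrays 25 (6.74) and 28 (7.39) were again the lowest of their arms, and array 25 was below background. The SMC3 control difference was -5.11 (SE 0.85, limma adjusted p = 0.000214), and -3.79 (adjusted p = 0.00337) after quantile normalization. CTCF, of the same list, went from -1.61 in control arrays to 0.10 (limma adjusted p = 0.78) with quantile normalization. The 2 called higher in SK-N-AS, CELSR1, a planar polarity cadherin, and CDHR5, a cadherin of intestinal microvilli, were below background on every array, and the treated-array call of CELSR1 (0.72) was lost without any of 6 of the 10 arrays. No partner gene was called after treatment in either line by limma (0% of all probe sets), and at an unadjusted p under 0.05 there were 1 in SK-N-FI (2.85% of all probe sets) and 2 in SK-N-AS (2.6%).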

How the data were processed

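Each array hybridised labelled cDNA made from Trizol-extracted RNA, per the labels' protocols. The authors deposited 1 log2 value for each probe set and array. Transcriptome Analysis Console 4.0.1.36 and RMA stand in the submitters' processing notes, with no role given, and the genome build is not given in the sources used here. Of 24351 probe sets, 2903 controls were set aside and 21448 tested, of which 17709 had 1 symbol and 3739 are unnamed here. The lines differed in overall signal, so the deposited values may have been normalized separately.

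Tests were limma 3.58.1 (R 4.3.3; lmFit, eBayes, two-sided) with Benjamini-Hochberg adjustment over all 21448 probe sets. Treatment was fitted within each line; line contrasts and the interaction used all 10 arrays in 4 groups. The fits were also run on simulated data, which were independent normal noise with added changes and no overall offset between the lines. That was a check of the code and is not offered as a measure of what these arrays could detect. Arrays give no counts, so their number (2 or 3 a group) limits the precision.

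Members, gene lists and the rule for named genes were chosen with earlier results of these data known. Genes named with values were those above background on every array of a group, those called between lines in control and treated arrays under both scalings, and the 5 per line with the smallest treatment p. Alternatives tried were quantile and median scaling, a dim-probe filter, other background limits, fit options, leaving out each array and the replicate block.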

Additional observations from a re-analysis of the deposited data

How the results depend on the processing

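The counts of members higher in SK-N-FI (25 in control and 26 in treated arrays), and the absence of treatment and interaction calls, stayed within 1.5 times their value or at 0 under every alternative run. The members behind the SK-N-FI counts were not the same throughout, and fewer kept their call under all alternatives together. With each array centred on its median, which moved the median difference over all probe sets to 0.23 in control arrays, members higher in SK-N-AS went from 7 to 19 in control and from 9 to 17 in treated arrays; with dim probe sets filtered out first, which leaves fewer members to test, both counts were 2. Partner genes higher in SK-N-AS went from 2 to 7 (quantile), 15 (median) and 0 (filter) in control arrays, and from 5 to 10, 11 and 0 in treated arrays; partners higher in SK-N-FI in treated arrays went from 20 to 13 with the filter. At the 99th percentile of the negative controls, 0 members passed on every SK-N-FI array and 1, CDH2, on every SK-N-AS array. Against the deposited sign, PCDHB10 reached 1.36 in control and 1.15 in treated arrays with quantile normalization and 0.75 and 0.55 with median centring, PCDHB6 0.0161 and PCDHB9 0.0855 with quantile normalization in control arrays, and CDH1 0.35 in control and 0.35 in treated arrays with median centring. The cause of these shifts beyond the scaling itself was not tested.

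Leaving out each array in turn gave 23 to 25 members higher in SK-N-FI against 5 to 8 in SK-N-AS for control arrays, and 24 to 26 and 6 to 10 for treated arrays. Partners higher in SK-N-AS ranged from 1 to 3 in control arrays, with 1 without the second SK-N-FI control array, where CDHR5 lost its call (0.83). In treated arrays they ranged from 1 to 5, with 1 without the second SK-N-FI treated array and 2 without array 29. Where this left 1 array in a group, that array was assumed to vary like the others. The array numbers of SK-N-FI were also used as a replicate block: 0 members were called with it, and 0 with the numbers crossed, a pairing added after the deviations of same-numbered arrays were seen to correlate at -0.17. Signal over background limits the 26 members below it on every array, and 2 or 3 arrays a group limit the treatment comparison.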
